A study of Caenorhabditis elegans with 18 samples.

Results

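The comparison asked what loss of *lin-29* changed in animals that already lacked *fbxl-5*. It set the 3 mRNA-Seq libraries of *lin-29(n333); fbxl-5(rhd43)* animals against the 3 libraries of *fbxl-5(rhd43)* animals, which are 6 of the 18 libraries of the series, over the 13472 of 24998 genes whose normalized count averaged at least 10 over the 18 libraries. All animals were day 1 adult hermaphrodites of *Caenorhabditis elegans*, grown from synchronized L1 larvae for about 72 h at 20 °C on *E. coli* OP50 and harvested whole. Both genotypes carried the *rhd43* allele, a nonsense mutation in *fbxl-5*, and differed by the *n333* allele of *lin-29*. Each genotype was 1 strain, and its 3 libraries were biological replicates. The 3 *lin-29(n333)* and the 3 wild-type libraries (strain N2) were used to ask, with an interaction term, where the change differed from that seen with *fbxl-5* intact. Because whole animals were sequenced, fewer cells of a type and less RNA per cell cannot be told apart in any result below.

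LIN-29 is a zinc finger transcription factor at the end of the heterochronic pathway, the cascade that times larval stages in *C. elegans*. It acts in the hypodermis at the switch from larva to adult, when seam cells fuse, an adult cuticle is made and molting stops. FBXL-5 is an F-box protein, a family that brings substrates to SCF ubiquitin ligases. Vitellogenins, encoded by the *vit* genes, are yolk lipoproteins that the adult intestine makes and that oocytes take up through the receptor RME-2.

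The *lin-29; fbxl-5* libraries held 16529743, 20042071 and 13434120 reads on genes in replicates 1, 2 and 3, and the *fbxl-5* libraries 29733059, 23728891 and 29261093. Every *fbxl-5* library was thus deeper than every *lin-29; fbxl-5* library. The share of reads on ribosomal RNA genes was 0.464%, 2.80% and 0.659% in *lin-29; fbxl-5*, against 1.56%, 0.256% and 29.98% in *fbxl-5*, replicate 3 of which stood out. The *lin-29* gene (chromosome II, 11917642 to 11935343 in WBcel235) had normalized counts of 164, 142 and 134 in *lin-29; fbxl-5*, against 75.5, 62.6 and 84.6 in *fbxl-5*. The *fbxl-5* gene (chromosome V, 7742909 to 7751369) had 755, 374 and 306 in *lin-29; fbxl-5*, against 139, 138 and 141 in *fbxl-5*. Transcripts of both genes were therefore higher in *lin-29; fbxl-5* in all 3 libraries, by log2 fold changes of 0.98 (SE 0.20, adjusted p = 0.00064) and 1.66 (SE 0.25, adjusted p = 5.41e-05). Transcript levels did not check the genotypes, since neither allele has to lower the transcript. Here and below, fold changes are differences of log2(normalized count + 1) from limma, with their standard error (SE) and an adjusted p by the Benjamini-Hochberg method, and a gene was called at 1% FDR. The scale understates the change of genes with few counts.

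*lin-29; fbxl-5* replicates 1 and 3 each stood apart from their group, in opposite directions. Of the 8856 genes averaging at least 100 over the 6 libraries, 176 were over 2-fold higher in replicate 3 than in both other replicates and 29 were over 2-fold lower. For replicate 1 these numbers were 36 and 156, and for replicate 2 they were 36 and 20. Of the *lin-29* libraries used in the interaction, replicate 3 had 84 such genes above and 317 below. Of the 176 genes high in *lin-29; fbxl-5* replicate 3, 67 were called lower in *lin-29* than in wild-type. Among the 126 genes over 4-fold lower in *lin-29* than in wild-type, the median difference from the *fbxl-5* mean was -1.17 on the log2 scale in replicate 3, against -3.26 in replicate 1 and -2.76 in replicate 2. Among the 1017 genes over 4-fold higher in *lin-29*, the medians of replicates 1, 2 and 3 were close, at 2.82, 3.19 and 2.69. Fold changes of genes named below that moved over 1.5-fold with 1 library left out are given with and without it.

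Loss of *lin-29* in the *fbxl-5* background changed 4788 of the 13472 genes tested, which is 35.5%, and at 5% FDR 50.7% were called. Of the genes called at 1% FDR, 2645 were higher (19.6% of genes tested) and 2143 were lower (15.9%). Counts called in the gene lists below are to be read beside these shares. The genes that rose changed more, with a median log2 fold change of 1.64, and 285 of them rose over 16-fold. The genes that fell had a median change of 0.55 in size, and 8 fell over 16-fold. The genes that fell were also more abundant, with a median mean count of 988 over the 6 libraries, against 145 for those that rose. With only genes averaging at least 100 over the 18 libraries, 1549 were called higher and 1838 lower. The 3 *lin-29; fbxl-5* libraries lay all above or all below the 3 *fbxl-5* libraries for 57.9% of genes, so such a separation alone says little about a gene. Without *lin-29; fbxl-5* replicate 3, 2424 genes were higher and 2140 lower. Without *lin-29; fbxl-5* replicate 2, 1407 were lower, and the other 4 libraries left out 1 at a time gave between 1437 and 2217.

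**Figure D1:**
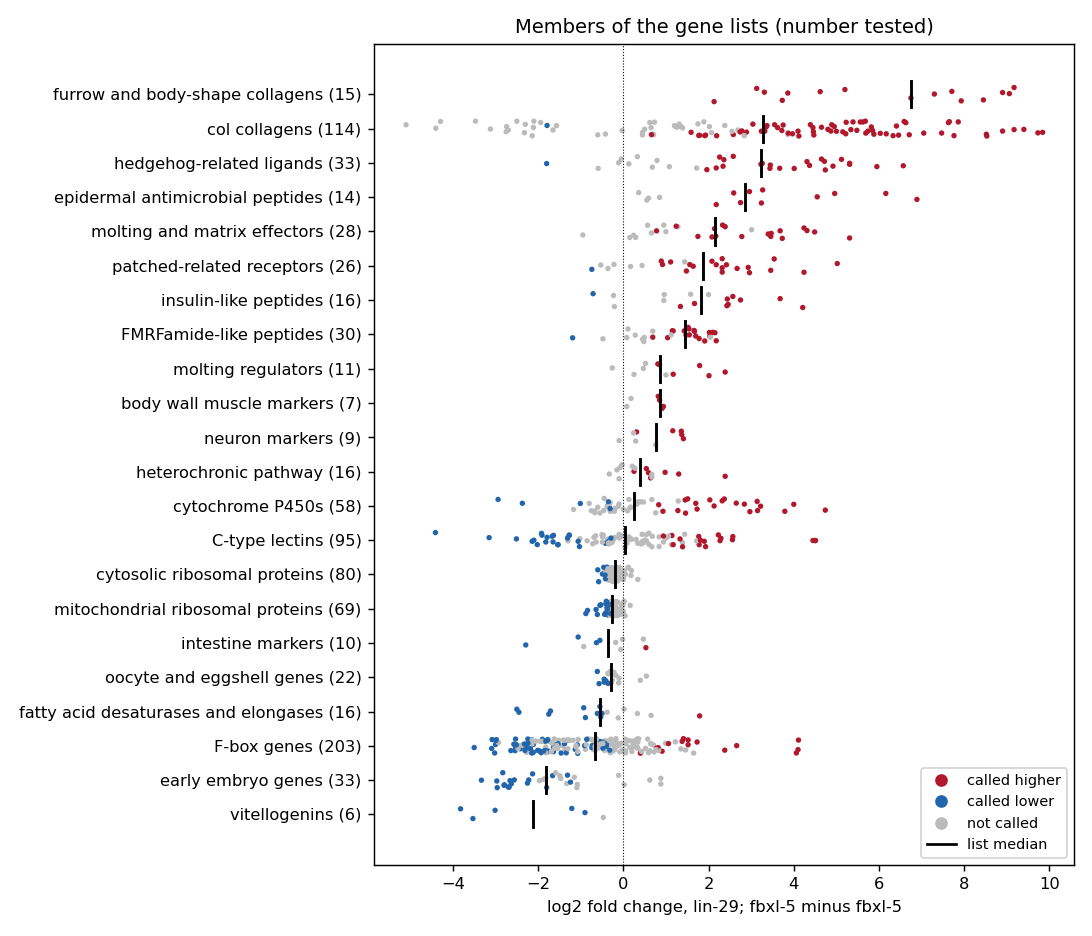
Log2 fold change of each tested gene of 22 lists, *lin-29; fbxl-5* minus *fbxl-5*. Each point is a gene, red where called higher, blue where called lower and grey where not called at 1% FDR, and the black bar is the list's median. Collagens lie to the right, at a median of 6.75 for furrow and body-shape collagens, and vitellogenins to the left, at a median of -2.11.

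All 6 vitellogenin genes had lower normalized counts in every *lin-29; fbxl-5* library than in every *fbxl-5* library, and 5 of the 6 were called lower. Their median log2 fold change was -2.11, against -0.04 over all genes tested. The largest fall was that of *vit-1* (chromosome X, 7727889 to 7733168), with 10473, 4955 and 7783 in *lin-29; fbxl-5*, against 92085, 102883 and 119160 in *fbxl-5*. It was thus 14.1-fold lower, a log2 fold change of -3.82 (SE 0.23, adjusted p = 4.34e-09).

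*vit-3* had normalized counts of 8061, 3562 and 4538 in *lin-29; fbxl-5*, against 52021, 59508 and 65400 in *fbxl-5*, and *vit-4* had 7950, 4021 and 8017, against 45452, 52516 and 56094. These neighbours on chromosome X encode yolk proteins of the YP170 class and fell by 3.53 (SE 0.28) and 3.01 (SE 0.27) on the log2 scale. The genes with the most reads fell least. *vit-5* had 153225, 96881 and 163958 in *lin-29; fbxl-5*, against 289980, 309462 and 332887 in *fbxl-5*, 2.31-fold lower (log2 fold change -1.21, SE 0.20, adjusted p = 0.000121). *vit-6* (chromosome IV, 8261157 to 8266459), which encodes the precursor of the smaller yolk proteins, had 656783, 402913 and 571652, against 969227, 970285 and 1037670, 1.86-fold lower (log2 fold change -0.90, SE 0.17, adjusted p = 0.000323). *vit-2* (chromosome X, 5101042 to 5106169) had 568939, 411900 and 527905 in *lin-29; fbxl-5*, against 659308, 688642 and 727860 in *fbxl-5*. Its log2 fold change of -0.47 (SE 0.14) missed the threshold, at an adjusted p of 0.0118, and a call of all 6 genes was obtained without *lin-29; fbxl-5* replicate 1. In each of these genes *lin-29; fbxl-5* replicate 2 was the lowest library.

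The 6 genes together took 6.29%, 4.50% and 6.65% of the reads of the *lin-29; fbxl-5* libraries, against 8.83%, 9.55% and 6.99% of those of the *fbxl-5* libraries, with 95% Wilson intervals at most 0.013 points to each side, which cover counting error only. The means were 5.81% ± 1.15 and 8.46% ± 1.32 (SD, n = 3 each). An exact two-sided permutation test gave p = 0.1, the smallest that 3 against 3 libraries allow. These shares are of all reads on genes, ribosomal RNA reads included, which made up 29.98% of *fbxl-5* replicate 3. By share that replicate was the lowest of its group. By summed normalized counts of the 6 genes it was the highest, at 2339071, against 2108073 and 2183294 in replicates 1 and 2.

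**Figure D2:**
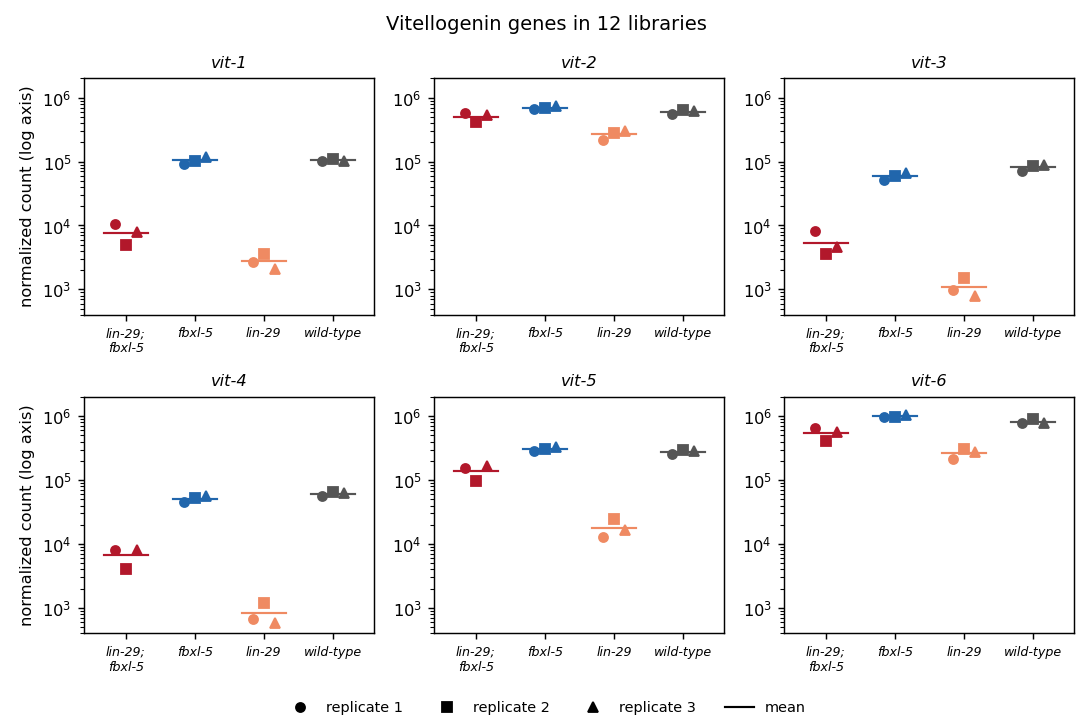
Normalized counts of the 6 vitellogenin genes on a log axis in *lin-29; fbxl-5*, *fbxl-5*, *lin-29* and wild-type libraries. Each symbol is a library, with its shape giving the replicate, and lines are group means. *vit-3*, for example, lay between 3562 and 8061 in *lin-29; fbxl-5*, between 52021 and 65400 in *fbxl-5* and between 793 and 1482 in *lin-29*.

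Of 14 genes listed as vitellogenin regulators, 4 were called higher and none lower by limma, against 19.6% and 15.9% of all genes. The higher count was 4 or 5 with any 1 of the 6 libraries left out. *pqm-1*, a zinc finger transcription factor of intestinal cells, had 1426, 1491 and 1300 in *lin-29; fbxl-5*, against 365, 328 and 312 in *fbxl-5*, and was 4.19-fold higher (log2 fold change 2.07, SE 0.17, adjusted p = 9.51e-08). *dbl-1* and *sma-4*, a ligand and a co-SMAD of the TGF-β pathway that sets body size, rose by 1.00 (SE 0.19) and 1.14 (SE 0.14) on the log2 scale. *lrp-1*, a hypodermal lipoprotein receptor needed for molting, rose by 1.24 (SE 0.26).

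*rict-1*, *sgk-1*, *daf-2* and *daf-16*, single genes of mTORC2 and insulin signaling, were not called, and no list of either pathway was examined. *rict-1*, which encodes Rictor, had 2755, 2694 and 2171 in *lin-29; fbxl-5*, against 2603, 2322 and 2421 in *fbxl-5*, and its groups overlapped (log2 fold change 0.05, SE 0.12, adjusted p = 0.765). *sgk-1*, which encodes a kinase acted on by mTORC2, had a log2 fold change of 0.32 (SE 0.11, adjusted p = 0.024). The values of *daf-2* and *daf-16*, an insulin receptor and its FOXO factor, were 0.14 and 0.16 (SE 0.12 each). The yolk receptor gene *rme-2* had 25199, 20385 and 19515 in *lin-29; fbxl-5*, against 34185, 30916 and 31120 in *fbxl-5*, and fell by 0.57 on the log2 scale (SE 0.14, adjusted p = 0.00361). This call was lost without *fbxl-5* replicate 1 or 3 or *lin-29; fbxl-5* replicate 2 or 3, at adjusted p-values between 0.0102 and 0.0185.

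Of 16 genes of the heterochronic pathway, 7 were called higher and none lower by limma, against 19.6% and 15.9% of all genes. *lin-42*, the worm homologue of Period and a regulator of molting cycles, had 1226, 648 and 423 in *lin-29; fbxl-5*, against 141, 131 and 122 in *fbxl-5*, 5.26-fold higher (log2 fold change 2.39, SE 0.28, adjusted p = 4.95e-06). *hbl-1*, a Hunchback-like factor that acts upstream of *lin-29* and promotes larval fates, averaged 1003 ± 286 in *lin-29; fbxl-5*, against 399 ± 43.7 in *fbxl-5* (SD, n = 3 each), a log2 fold change of 1.30 (SE 0.24). *dre-1*, which encodes another F-box protein, rose by 0.64 (SE 0.12). The early regulators *lin-14*, *lin-28* and *lin-41* were not called, with log2 fold changes of 0.27 (SE 0.18), -0.08 (SE 0.09) and -0.33 (SE 0.16).

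Cuticle collagens made up the genes that rose most. All 15 collagens that form cuticle furrows or shape the body were called higher, with a median log2 fold change of 6.75 and values between 2.13 and 9.17, and all 15 calls held with any 1 library left out. *dpy-5* had 12466, 7390 and 8602 in *lin-29; fbxl-5*, against 16.1, 14.5 and 14.9 in *fbxl-5*, a 574-fold difference (log2 fold change 9.17, SE 0.86, adjusted p = 1.43e-06). *rol-6* had 2934, 1235 and 660, against 1.61, 2.89 and 4.57 (log2 fold change 8.45, SE 0.94). *dpy-13* and *dpy-4* rose by 9.06 (SE 0.70) and 8.90 (SE 0.66). Mutations in genes of this group can give dumpy, roller or long animals.

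Among the *col* genes, which encode further cuticle collagens, 70 of 114 tested members were called higher and 1 lower. Their median log2 fold change was 3.28. *col-41* had 10921, 5718 and 4511 in *lin-29; fbxl-5*, against 12.9, 0.963 and 12.6 in *fbxl-5* (log2 fold change 9.84, SE 1.03, and 8.90 without *fbxl-5* replicate 2), and *col-17* had 10538, 5805 and 5993, against 11.2, 3.85 and 9.14 (log2 fold change 9.73, SE 0.67). *col-90*, *col-156*, *col-145*, *col-146* and *col-73* rose by between 8.52 and 9.40 on the log2 scale. Of the 12 genes that rose most in the whole comparison, 11 were collagens, and the other was *F57H12.6*, with 682, 794 and 568, against 2.41, 0 and 1.14. The number of *col* genes called lower was decided by 1 library. It was 1, *col-158* at a log2 fold change of -1.79 (SE 0.33), with all libraries, 2 without *lin-29; fbxl-5* replicate 2, and 17 without *lin-29; fbxl-5* replicate 3.

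The adult collagen gene *col-19*, a standard marker of the adult hypodermis, showed that spread. It had 386, 1749 and 11397 in *lin-29; fbxl-5* replicates 1, 2 and 3, against 9903, 10341 and 9479 in *fbxl-5*. Replicate 3 lay above every *fbxl-5* library and the other replicates lay below them. The log2 fold change was -2.32 (SE 0.82, adjusted p = 0.0317) and not called, and it was -3.59 without replicate 3 (adjusted p = 5.28e-05) and -1.15 without replicate 1 (adjusted p = 0.101). *col-95* and *col-143*, picked after their values were seen, had 9.46, 213 and 4170, and 20.3, 743 and 13641, in *lin-29; fbxl-5*, against 6250, 7406 and 8065, and 11505, 13440 and 13002, in *fbxl-5*. They were not called with all libraries (adjusted p = 0.0108 and 0.0317) and were called without replicate 3, at log2 fold changes of -7.25 and -6.65, and stood at -2.93 and -1.99 without replicate 1. The other adult collagens with a call, *bli-2* and *rol-1*, were higher, at 3.96 (SE 0.76) and 2.91 (SE 0.80). The call of *rol-1* was lost without *lin-29; fbxl-5* replicate 2 or 3 or any *fbxl-5* replicate, at adjusted p-values between 0.0156 and 0.0333.

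**Figure D3:**
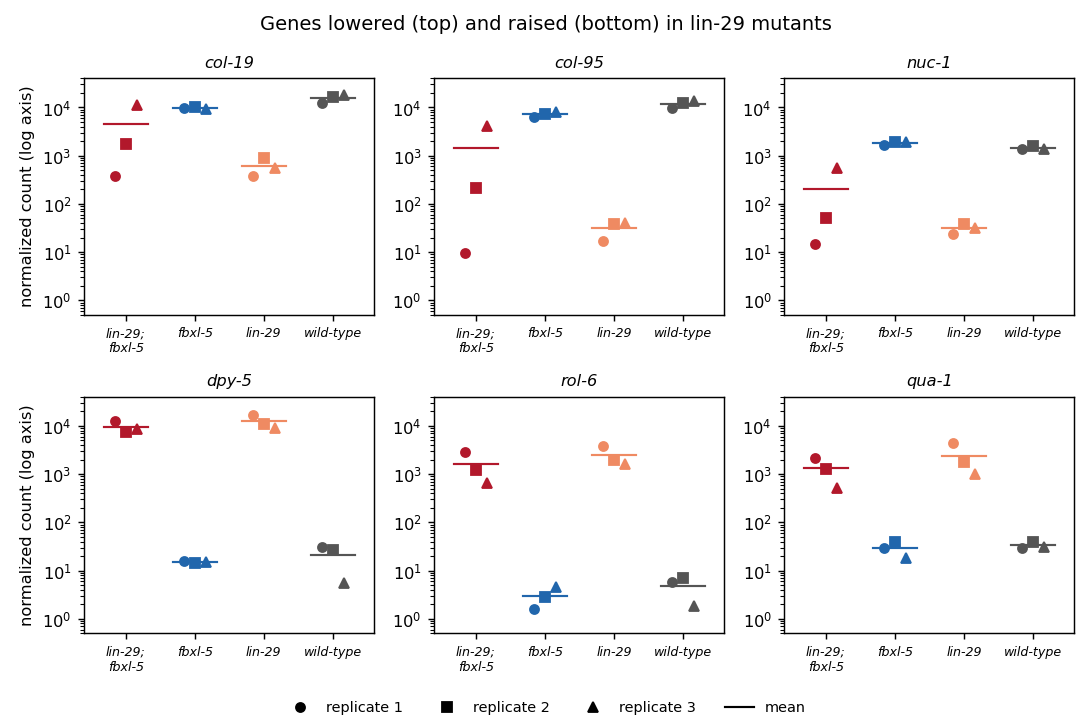
Normalized counts on a log axis of 3 genes with lower levels in *lin-29* libraries (top) and 3 with higher levels (bottom), in *lin-29; fbxl-5*, *fbxl-5*, *lin-29* and wild-type. Each symbol is a library, with its shape giving the replicate, and lines are group means. In *lin-29; fbxl-5*, replicate 3 (triangle) of *col-19* reached 11397 against 386 in replicate 1, whereas the 3 replicates of *dpy-5* lay between 7390 and 12466.

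Genes that act when a new cuticle is made rose with the collagens. Of 28 molting and apical matrix effectors, 18 were called higher and none lower by limma, at a median log2 fold change of 2.15. *mlt-8*, named for a molting defect, had 2445, 1764 and 1502 in *lin-29; fbxl-5*, against 94.0, 101 and 58.3 in *fbxl-5*, 22.4-fold higher (log2 fold change 4.49, SE 0.43, adjusted p = 9.45e-07). Among 11 regulators of molting, 6 were called higher and none lower by limma. The Grainyhead factor gene *grh-1* had 259, 295 and 185, against 50.6, 79.0 and 52.6 (log2 fold change 2.01, SE 0.25), and the nuclear receptor gene *nhr-41* had 504, 397 and 308, against 115, 111 and 115 (log2 fold change 1.79, SE 0.15). *nhr-23*, a nuclear receptor gene that drives molting, was not called (log2 fold change -0.26, SE 0.13, adjusted p = 0.102).

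Hedgehog-related ligands and patched-related receptors, many of which are made in epidermal cells, followed the same direction. Of 33 ligand genes 23 were called higher and 1 lower (median 3.23), and of 26 receptor genes 19 were called higher and 1 lower (median 1.86). *qua-1*, a ligand needed for molting, had 2177, 1305 and 513 in *lin-29; fbxl-5*, against 28.9, 39.5 and 18.3 in *fbxl-5* (log2 fold change 5.31, SE 0.63). *grd-6* had 472, 306 and 449, against 11.2, 1.93 and 1.14 (log2 fold change 6.57, SE 0.79, and 7.33 without *fbxl-5* replicate 1). Of the receptors, *ptr-22* had 482, 910 and 536, against 17.7, 15.4 and 21.7 (log2 fold change 5.02, SE 0.51). The members called lower were *grd-3*, at -1.80 (SE 0.43), and *ptr-24*, at -0.74 (SE 0.11). *grd-3* stood at -1.10 without *lin-29; fbxl-5* replicate 1, and its call was lost without *fbxl-5* replicate 2 or 3 (adjusted p = 0.0124 and 0.0108).

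Of 12 seam cell genes, 4 were called higher and none lower by limma, against 19.6% and 15.9% of all genes. *eff-1*, which encodes the fusogen that joins hypodermal cells, averaged 141 ± 44.7 in *lin-29; fbxl-5*, against 32.1 ± 7.51 in *fbxl-5* (SD, n = 3 each), a log2 fold change of 2.08 (SE 0.35), and *cki-1*, a cell cycle inhibitor gene, rose by 1.28 (SE 0.22). Among 8 hypodermis markers 5 were called higher, 4 of them cuticle or hedgehog-related genes of the lists above, such as *dpy-7* (log2 fold change 3.86, SE 0.53). The hypodermal GATA factor gene *elt-3* was not called, at -0.55 (SE 0.21). This count was 3 without *lin-29; fbxl-5* replicate 2 or *fbxl-5* replicate 1.

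Antimicrobial peptides of the epidermis also rose. Of 14 tested members of the *nlp-29* and *cnc* groups, 10 were called higher and none lower by limma, at a median of 2.86. *nlp-34* had 961, 1445 and 880 in *lin-29; fbxl-5*, against 9.64, 7.71 and 6.86 in *fbxl-5*, a log2 fold change of 6.89 (SE 0.42, adjusted p = 3.49e-09). *nlp-30* and *cnc-4* rose by 6.16 (SE 0.34) and 4.96 (SE 0.36). *nlp-27* and *nlp-28* were not called (adjusted p = 0.12 and 0.412).

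Outside the *vit* family, the genes named here as falling most had varied functions or none assigned. They were picked among called genes whose groups did not overlap. That rule left out genes not called with all libraries, such as *col-95* and *col-143*, which fell further without *lin-29; fbxl-5* replicate 3. *Y48E1B.8* had 0, 7.17 and 4.31 in *lin-29; fbxl-5*, against 193, 211 and 222 in *fbxl-5* (log2 fold change -5.89, SE 0.55). *drd-1* had 71.6, 92.2 and 70.4, against 945, 1012 and 1121, and fell by 3.71 (SE 0.15, adjusted p = 7.75e-11). *nuc-1*, which encodes a lysosomal DNase II, had 14.9, 50.2 and 545, against 1643, 1884 and 1906 (log2 fold change -4.57, SE 0.85), with replicate 3 again nearest to *fbxl-5*. *clec-97* and *spex-3* showed the same order of replicates, at 13.5, 23.6 and 155, against 718, 825 and 901, and at 39.2, 59.4 and 385, against 1292, 1311 and 1341. Without replicate 3, *nuc-1*, *clec-97* and *spex-3* stood at -5.99, -5.43 and -4.74, and without replicate 1 at -3.44, -3.71 and -3.11, all still called. *Y48E1B.8* stood at -4.99 without replicate 1 and at -6.50 without replicate 2. *C11E4.7*, *F54E4.2*, *F58G6.3*, *C40H1.7* and *T12B5.15* had log2 fold changes between -4.79 and -3.60. Of these, *C11E4.7* stood at -5.87 without replicate 3 and -3.32 without replicate 1, *F54E4.2* at -5.15 without replicate 3 and -3.68 without replicate 2, and *T12B5.15* at -4.69 without replicate 3 and -2.95 without replicate 2. *Y62H9A.5* had 47.3, 277 and 5033, against 8032, 8341 and 8678, and its call (adjusted p = 0.00591) was lost without *lin-29; fbxl-5* replicate 2 or any *fbxl-5* replicate. Its log2 fold change was -4.36 with all libraries, -6.17 without *lin-29; fbxl-5* replicate 3 (adjusted p = 4.84e-07) and -2.82 without replicate 1.

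Of 33 genes of early embryos tested, 18 were called lower and none higher by limma, at a median of -1.82. *pes-10*, transcribed at the start of zygotic expression, had 13.5, 8.20 and 57.5 in *lin-29; fbxl-5*, against 160, 160 and 141 in *fbxl-5* (log2 fold change -2.96, SE 0.61, adjusted p = 0.00101), and stood at -3.74 without replicate 3. The count was 25 without *lin-29; fbxl-5* replicate 3 and between 11 and 13 without any 1 of the other libraries. Summed over the list, normalized counts were 782, 1055 and 1471 in *lin-29; fbxl-5*, against 2167, 2235 and 2205 in *fbxl-5*.

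Of 203 tested *fbxa*, *fbxb* and *fbxc* genes, which encode F-box proteins as *fbxl-5* does, 65 were called lower and 15 higher, at a median of -0.66. *fbxb-91* had 2.70, 8.20 and 10.1, against 61.0, 49.1 and 59.4 (log2 fold change -2.99, SE 0.51), whereas *fbxa-158* had 55.4, 47.1 and 50.3, against 5.62, 0.963 and 1.14 (log2 fold change 4.10, SE 0.46). The number called lower was 91 without *lin-29; fbxl-5* replicate 3 and between 35 and 41 without any 1 of the other libraries. For comparison, 15.9% of all genes tested were called lower and 19.6% higher.

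Oocyte and eggshell genes changed little. Of 22 members 6 were called lower and none higher by limma, at a median of -0.30 and with values between -0.61 and 0.54. The count was 11 without *lin-29; fbxl-5* replicate 1 and between 0 and 2 without any 1 of the other 5 libraries. Of 8 germline genes 2 were called lower, and 4 without *lin-29; fbxl-5* replicate 1. *glh-1*, a helicase gene of germ granules, had 8928, 7684 and 5754 in *lin-29; fbxl-5*, against 13940, 13184 and 13654 in *fbxl-5* (log2 fold change -0.89, SE 0.15), and the call of *pgl-1* (-0.55, SE 0.14) was lost without any 1 *fbxl-5* library and without *lin-29; fbxl-5* replicate 2 or 3. Of 40 sperm protein genes 3 were called higher and none lower by limma, at a median of 0.81. Their summed counts were 1957, 1209 and 2567 in *lin-29; fbxl-5*, against 914, 1134 and 853 in *fbxl-5*. The numbers called in these lists stand beside 19.6% of all genes called higher and 15.9% called lower. The part of embryos, oocytes and sperm in the other results was not tested.

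Of 16 fatty acid desaturase, elongase and synthase genes, 10 were called lower and 1 higher, at a median of -0.54, and between 8 and 10 were lower with any 1 library left out. *elo-5* and *elo-6*, elongases for branched-chain fatty acids, had 620, 774 and 1509, and 677, 869 and 1979, in *lin-29; fbxl-5*, against 4428, 5108 and 5267, and 5587, 5750 and 6536, in *fbxl-5*. They fell by 2.45 (SE 0.25) and 2.50 (SE 0.29). *fat-7*, a stearoyl-CoA desaturase gene, had 407, 323 and 388, against 1153, 1170 and 1461 (log2 fold change -1.75, SE 0.26), and *elo-2*, an elongase gene, fell by 1.71 (SE 0.17). *elo-4* rose by 1.79 (SE 0.42).

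Of 39 genes that release or activate fatty acids, 13 were called higher and 6 lower, against 19.6% and 15.9% of all genes. *cpt-3*, which encodes a carnitine palmitoyltransferase, had 385, 304 and 342 in *lin-29; fbxl-5*, against 6.43, 3.85 and 3.43 in *fbxl-5* (log2 fold change 5.98, SE 0.30, adjusted p = 8.81e-10). *lipl-2*, a lysosomal lipase gene, had 401, 430 and 358, against 8.03, 18.3 and 24.0 (log2 fold change 4.60, SE 0.35). The acyl-CoA synthetase genes *acs-1* and *acs-2* fell by 1.65 (SE 0.10) and 1.63 (SE 0.24). Of 9 lipid binding protein genes 2 were called higher and 3 lower, 4 being lower without *lin-29; fbxl-5* replicate 3 and 1 without any other library. *icl-1*, an enzyme of the glyoxylate cycle, had 27576, 18070 and 21858, against 8800, 9638 and 11732, 2.22-fold higher (log2 fold change 1.15, SE 0.15, adjusted p = 1.07e-05). *nhr-114*, a nuclear receptor gene, had 1062, 504 and 671, against 4466, 3896 and 4342, and fell by 2.57 (SE 0.20). Of 166 tested *nhr* genes 50 were called higher and 10 lower, and without *lin-29; fbxl-5* replicate 2 these counts were 29 and 7, while without *fbxl-5* replicate 2 or 3 they were 34 and 5, and 34 and 6.

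Of 10 intestine markers 4 were called lower and 1 higher, and 5 and 2 without *lin-29; fbxl-5* replicate 3. Over all genes tested, 15.9% were called lower and 19.6% higher. *pept-1*, the peptide transporter of the gut, had 434, 768 and 919 in *lin-29; fbxl-5*, against 3298, 3305 and 3264 in *fbxl-5*, 4.88-fold lower (log2 fold change -2.29, SE 0.21, adjusted p = 3.58e-07). *vha-6*, a subunit of the proton pump of the gut lumen, had 2426, 1816 and 4088, against 5524, 5123 and 5816 (log2 fold change -1.06, SE 0.18). *act-5*, the actin of the microvilli, fell by 0.55 (SE 0.12). *elt-2*, the GATA factor that marks intestinal nuclei, had 249, 322 and 311, against 300, 305 and 306, and its groups overlapped (log2 fold change -0.06, SE 0.15). The calls of *ges-1* and *cpr-1*, a gut esterase and a cathepsin B-like protease, were lost without some libraries. *ges-1*, at -0.63 (SE 0.15), was not called without *lin-29; fbxl-5* replicate 2 or *fbxl-5* replicate 3, and *cpr-1*, at 0.53 (SE 0.13), was not called without *lin-29; fbxl-5* replicate 1 or 2 or *fbxl-5* replicate 2 or 3, so that 0 markers were then higher.

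Families of secreted defence proteins had calls in both directions, to be read beside the 19.6% of all genes called higher and the 15.9% called lower. Of 95 C-type lectin genes 18 were called higher and 23 lower, the higher count being 11 without *fbxl-5* replicate 2. Of 12 lysozyme genes 5 were called higher and 3 lower, 3 being higher without *lin-29; fbxl-5* replicate 2. *lys-3* had 354, 470 and 313 in *lin-29; fbxl-5*, against 4.82, 7.71 and 6.86 in *fbxl-5* (log2 fold change 5.67, SE 0.39), whereas *ilys-5* had 5027, 2446 and 4054, against 12378, 12761 and 13318 (log2 fold change -1.80, SE 0.27). Of 58 cytochrome P450 genes 21 were called higher and 6 lower, and of 54 UDP-glucuronosyltransferase genes 13 were called higher and 15 lower. The lower count of the P450 genes was 2 without *fbxl-5* replicate 2.

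Markers of muscle and neurons that were called were higher, by smaller factors. Of 7 body wall muscle markers 5 were called higher, with log2 fold changes between 0.08 and 0.94 over the 7, and 2 or 3 were called without *lin-29; fbxl-5* replicate 2 or 3 or *fbxl-5* replicate 1 or 2. *mup-2*, troponin T, had 4461, 4667 and 5008 in *lin-29; fbxl-5*, against 2574, 2187 and 2790 in *fbxl-5* (log2 fold change 0.91, SE 0.13). Of 9 neuron markers 5 were called higher, among them *unc-64*, a syntaxin gene, with 716, 842 and 739, against 275, 296 and 320 (log2 fold change 1.36, SE 0.11), and *egl-3*, a proprotein convertase gene that processes neuropeptides, with 1204, 1945 and 1565, against 519, 533 and 710 (log2 fold change 1.41, SE 0.20). Of 4 pharynx markers 2 were called higher, 3 without *lin-29; fbxl-5* replicate 1 and 1 without any other library. These muscle, neuron and pharynx counts stand beside 19.6% of all genes called higher and 15.9% called lower.

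Of 30 genes of FMRFamide-like neuropeptides, 19 were called higher and 1 lower, at a median of 1.45. In *lin-29* against wild-type, 2 were called higher and 1 lower, at a median of 0.18. The interaction, which tests the difference between the backgrounds directly, was called for only 2 of the 30, both positive. Summed counts were 2419, 4074 and 3871 in *lin-29; fbxl-5*, against 1969, 2033 and 2213 in *fbxl-5*. They were 3778, 4082 and 2316 in *lin-29*, against 2843, 3024 and 3450 in wild-type, so the *fbxl-5* libraries were the low ones. *flp-14* had 112, 248 and 263 in *lin-29; fbxl-5*, against 45.0, 33.7 and 58.3 in *fbxl-5* (log2 fold change 2.10, SE 0.36), and *flp-18* had 109, 271 and 234, against 38.6, 49.1 and 51.4 (log2 fold change 2.03, SE 0.38). *flp-6* fell by 1.19 (SE 0.23). The higher count was 9 without *lin-29; fbxl-5* replicate 2, 12 without its replicate 3 and 11 without *fbxl-5* replicate 2. Of 16 insulin-like peptide genes 9 were called higher and 1 lower, at a median of 1.83, with *ins-20*, *ins-4*, *ins-23* and *ins-7* rising by between 2.46 and 4.21. *ins-20*, the highest, stood at 3.51 without *fbxl-5* replicate 2. The member called lower, *ins-34* (-0.71, SE 0.21), was called without *lin-29; fbxl-5* replicate 3 and not without any 1 of the other libraries.

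Of 69 mitochondrial ribosomal protein genes 22 were called lower and none higher by limma, at a median of -0.26, and the count was 10 without *lin-29; fbxl-5* replicate 2 and 12 without *fbxl-5* replicate 2 or 3. *mrpl-23* had 368, 453 and 440, against 715, 788 and 809 (log2 fold change -0.88, SE 0.12). Of 80 cytosolic ribosomal protein genes 7 were called lower and none higher by limma, at a median of -0.20. This is a smaller share than the 15.9% of all genes called lower, and the count was 8 without *lin-29; fbxl-5* replicate 1, 4 without its replicate 3, 2 without *fbxl-5* replicate 1 and 1 without any other library. Among 21 genes of the heat shock and unfolded protein responses 7 were called higher and 2 lower, against 19.6% and 15.9% of all genes. The lower count was 5 without *lin-29; fbxl-5* replicate 1 and 1 without any other library. *hsp-60*, the mitochondrial chaperonin gene, had 8708, 6023 and 5969, against 14496, 14216 and 14977, and fell by 1.10 (SE 0.14). *hsp-70* had 265, 136 and 104, against 8.03, 12.5 and 9.14 (log2 fold change 3.86, SE 0.63). In *lin-29* against wild-type it was not called, at -0.52 (SE 0.63).

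The change with loss of *lin-29* was then set beside the same change with *fbxl-5* intact, *lin-29* minus wild-type, which shares no library with the first. Across the 13472 genes the log2 fold changes in the *fbxl-5* background followed those in the wild-type background with a Pearson r of 0.86 and a slope of 0.758, and 81.5% had the same sign. These values describe the spread over genes, which are not replicates, and carry no p. Taken with *lin-29; fbxl-5* replicates 1, 2 and 3 alone, the slope was 0.80, 0.80 and 0.675. Of the 2645 genes called higher in the *fbxl-5* background, 2013 (76.1%) were also called higher in *lin-29* against wild-type and 4 were called lower. Of the 2143 called lower, 1348 (62.9%) were also called lower and 31 were called higher. For reference, 22.6% of genes were called higher and 18.4% lower in *lin-29* against wild-type.

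A difference between the backgrounds was tested gene by gene with the interaction, and 323 genes (2.40%) were called, 96 (0.713%) with a positive and 227 (1.68%) with a negative estimate. The total lay between 161 and 450 with 1 of the 12 libraries left out. A positive estimate means that the level in *lin-29; fbxl-5* relative to *fbxl-5* was above that in *lin-29* relative to wild-type. The vitellogenin genes were among the positive ones, with 3 of 6 called and all calls kept with any 1 of the 12 libraries left out. *vit-4* was 8.05-fold lower in the *fbxl-5* background and 77.8-fold lower in the wild-type background, an interaction of 3.27 (SE 0.38, adjusted p = 0.000119). *vit-5* was 2.31-fold and 15.9-fold lower in the same backgrounds (interaction 2.79, SE 0.28), and *vit-3* 11.6-fold and 77.6-fold lower (interaction 2.74, SE 0.39). The values for *vit-1*, *vit-2* and *vit-6* were 1.47, 0.70 and 0.75, at adjusted p-values of 0.0118, 0.0477 and 0.0666.

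Genes of the intestine stood among the negative ones. Of 10 intestine markers 5 had a negative interaction that was called. *cpr-1* had 4042, 3720 and 3413 in *lin-29; fbxl-5*, against 2974, 2432 and 2367 in *fbxl-5*, and 13366, 14299 and 13523 in *lin-29*, against 2555, 2650 and 2706 in wild-type (interaction -1.85, SE 0.18, adjusted p = 1.69e-05). *haf-9*, an ABC transporter gene of gut granules, had 149, 153 and 253 in *lin-29; fbxl-5*, against 734, 636 and 826 in *fbxl-5*, and 1112, 1037 and 1180 in *lin-29*, against 539, 702 and 638 in wild-type. It was thus lower in the *fbxl-5* background and higher in the wild-type background (interaction -2.85, SE 0.25, adjusted p = 6.85e-06). *pept-1*, *vha-6*, *ges-1* and *ifb-2*, the last an intermediate filament gene of the gut, had interactions of -1.66, -1.46, -1.53 and -1.43, and the calls of *pept-1* and *vha-6* were lost without some libraries, at adjusted p-values of at most 0.0106. Among 15 furrow and body-shape collagens, 28 molting effectors and 14 epidermal antimicrobial peptides, the interaction was called for none by limma. With 2.40% of all genes called, none in lists of this size does not show that the backgrounds were alike. Some of these genes also had large interaction standard errors, such as 1.22 for *dpy-5* and 1.36 for *mlt-9*.

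**Figure D4:**
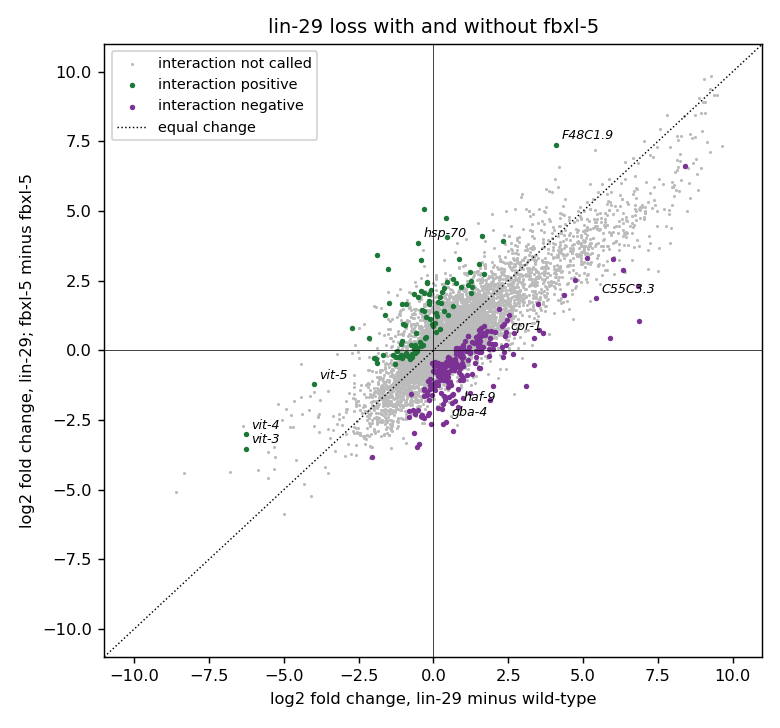
Log2 fold change of each tested gene in *lin-29; fbxl-5* minus *fbxl-5* (vertical) against *lin-29* minus wild-type (horizontal). Each point is a gene, green where the interaction was called positive, purple where called negative and grey otherwise, and the dotted line marks equal change. Most genes lie near the line (r = 0.86), with *vit-3*, *vit-4* and *vit-5* above it and *haf-9* and *cpr-1* below it.

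Genes called were spread unevenly over chromosomes. On chromosome X, 26.8% of 1952 tested genes were called higher and 11.7% lower, and on V 25.3% of 2582 were called higher and 14.8% lower. On I the order was the other way, with 13.8% of 2183 higher and 18.5% lower. The medians of X, V and I were 0.18, 0.09 and -0.12 on the log2 scale. Genes called lower on X included 4 vitellogenin genes, *nuc-1* and *pept-1*. These shares are a description with no test.

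**Figure D5:**
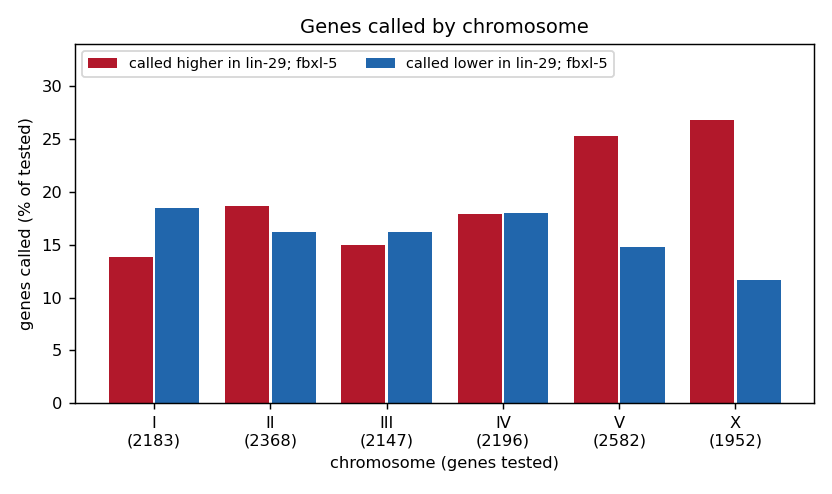
Share of tested genes called higher (red) and lower (blue) in *lin-29; fbxl-5* against *fbxl-5* on each chromosome, with the number of genes tested in parentheses. Higher calls reach 26.8% on X and 25.3% on V, against 13.8% on I.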

How the data were processed

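Whole day 1 adult hermaphrodites were sequenced by the authors from poly(A) RNA (TruSeq v2 libraries, single-end reads). Reads were aligned to WS260, and the labels list STAR, featureCounts, Subread and DESeq2. DESeq2 was used by the authors to determine RPKM values and differential expression, and tool versions are not given in the sources used here. The authors deposited a normalized signal, the read count of each gene divided by the library's DESeq2 size factor. Dividing by the smallest step of a library gave whole numbers for 100% of values (tolerance 1e-06), so reads were recovered. Their own comparison tables were not used. Libraries were grouped by the genotype in their labels.

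log2(value + 1) was fitted with limma 3.58.1 in R 4.3.3 over 18 libraries, with 1 mean per genotype and a trended, robust prior. Benjamini-Hochberg adjustment covered the 13472 genes with a mean of at least 10, and genes were called at 1% FDR. The computation was tested on simulated data. edgeR 4.0.16, DESeq2 1.42.0, TMM, a pseudocount of 5, other filters, fewer libraries, a replicate block and a 5% FDR were alternatives. P-values measure the spread between these libraries. Library depth ranged over the 6 libraries from 13434120 to 29733059 reads, which leaves genes with few counts least precise. The kit does not mark strand, so reads of overlapping genes cannot be told apart.

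The comparison, the 39 gene lists and the tests were chosen with earlier results of these data known, so lists get counts and medians with no test of their own. Genes were named by a rule: *lin-29*, *fbxl-5*, *rict-1*, *rme-2* and the *vit* genes; 12 risers and 12 fallers with the largest changes among called genes with a mean of at least 100 and no overlap of the groups; per list the called members that changed most with a mean of at least 20, at most 4 per direction; and the 5 largest interactions in each direction with a mean of at least 100. Members named as not called, *ifb-2*, *col-95* and *col-143* were chosen after their values were seen. Gene symbols matched 92.7% of identifiers. Positions are from WBcel235. Genes that share reads with near-identical copies (*vit-3* and *vit-4*, sperm proteins, some collagens) are uncertain individually.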

Additional observations from a re-analysis of the deposited data

Results flagged for a closer look

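The effect of *lin-29* loss differed with and without *fbxl-5* for 323 genes by the interaction term (limma, 1% FDR). In all genes named here it passed that test, and the values are the estimates on the log2 scale. They were positive for *hsp-70* (4.38), *ugt-8* (3.63), *tre-5* (3.60), *F48C1.9* (3.29), *vit-4* (3.27), *vit-5* (2.79), *vit-3* (2.74) and *clec-264* (1.92). They were negative for *C55C3.3* (-3.58), *pitr-5* (-3.06), *gba-4* (-2.98), *lys-6* (-2.93), *haf-9* (-2.85), *col-155* (-2.79), *lys-4* (-2.16), *cpr-1* (-1.85), *C40H1.7* (-1.77), *pept-1* (-1.66), *clec-56* (-1.64), *ges-1* (-1.53), *vha-6* (-1.46), *ifb-2* (-1.43), *ugt-48* (-1.35), *ptr-24* (-0.73) and *ctl-2* (-0.66).

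*ugt-8*, a UDP-glucuronosyltransferase gene, had normalized counts of 118, 108 and 79.1 in *lin-29; fbxl-5*, against 10.4, 5.78 and 14.9 in *fbxl-5*, and 97.7, 76.0 and 63.2 in *lin-29*, against 86.5, 110 and 114 in wild-type. The 3 *fbxl-5* libraries were thus the low ones. They were also the low ones for *hsp-70*, at 8.03, 12.5 and 9.14, against 265, 136 and 104 in *lin-29; fbxl-5*. Its counts were 64.5, 76.9 and 43.6 in *lin-29* and 33.9, 175 and 108 in wild-type. *tre-5*, a trehalase gene, averaged 379 ± 186 in *lin-29; fbxl-5*, against 20.5 ± 6.31 in *fbxl-5*, and 264 ± 114 in *lin-29*, against 194 ± 94.9 in wild-type (SD, n = 3 each). *lys-6*, a lysozyme gene, showed the other pattern, with 5.41, 2.05 and 4.31 in *lin-29; fbxl-5*, against 52.2, 51.1 and 51.4 in *fbxl-5*, and 35.9, 34.9 and 46.6 in *lin-29*, against 50.3, 58.6 and 64.5 in wild-type.

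*C55C3.3* had 172, 206 and 144 in *lin-29; fbxl-5*, against 69.9, 46.2 and 30.9 in *fbxl-5*, and 643, 646 and 1107 in *lin-29*, against 22.2, 17.6 and 11.8 in wild-type. The interaction calls of *vit-3*, *vit-4*, *vit-5*, *ugt-8*, *lys-6*, *haf-9*, *cpr-1*, *ges-1*, *C55C3.3*, *pitr-5*, *gba-4*, *col-155* and *ifb-2* were kept with any 1 of the 12 libraries left out. Those of the other genes were lost without at least 1 library. The call of *hsp-70* was kept only without *lin-29; fbxl-5* replicate 3 or wild-type replicate 1. Without any other library its limma adjusted p lay between 0.0122 and 0.0228.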

How the results depend on the processing

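All 200 called genes named by the rule kept their direction under the 16 alternatives run for them, and 137 kept their call under each. The others lost it under at least 1 alternative, 45 of them without some library. For genes whose groups did not overlap, leaving out 1 library could not reverse the direction. Calls in *lin-29; fbxl-5* against *fbxl-5* numbered 1549 higher and 1838 lower of fewer genes tested at a mean of at least 100. Lower calls numbered 1133 in a fit of the 6 libraries alone and 3367 at 5% FDR, and with 1 library left out the totals ranged from 3469 to 4966, higher calls from 2062 to 2749 and lower calls from 1407 to 2217. Without *lin-29; fbxl-5* replicate 3 and *fbxl-5* replicate 3 together, a setting added after seeing the data, 2099 genes were higher and 1605 lower, and 54 interactions were positive.

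Whether replicate numbers mark shared harvests is not given. Same-numbered deviations correlated at 0.0909, -0.181 and 0.0193, and differently numbered ones between -0.156 and 0.177. With 3 libraries a group, these values cannot decide whether the libraries were paired. With the replicate block 2744 genes were higher and 2495 lower in the fit of 18 libraries, and 2265 and 1313 in the fit of the 6 libraries. Under the block in the 18 libraries, 2 of the named calls were lost.

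Interaction calls moved most. DESeq2 called 708 (300 positive, 408 negative), 5% FDR gave 907 (371 and 536), the fit of the 12 libraries alone gave 135 (35 and 100), no filter gave 61 positive, and leaving out 1 library gave totals from 161 to 450, positive from 37 to 189 and negative from 117 to 359. The correlation with the change in wild-type was 0.898 at a mean of at least 100, 0.785 with no filter, 0.842 without both replicates 3, and from 0.84 to 0.861 with 1 library left out. The sign of values not called with all libraries changed with 1 library left out for *rict-1* (range -0.02 to 0.16), *elt-2* (-0.13 to 0.06), *bli-1* (-0.58 to 0.05), *ifb-2* (-0.14 to 0.17), *asp-1* (-0.65 to 0.19) and the interaction of *rme-2* (-0.01 to 0.20), and for *ifb-2* (0.00) with DESeq2 or edgeR.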
